A study of Mus musculus with 6 samples.

Results

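The genes described here are 10 members of the CC chemokine system: the 8 chemokine genes Ccl2, Ccl3, Ccl4, Ccl6, Ccl7, Ccl8, Ccl9 and Ccl12, and the 2 receptor genes Ccr1 and Ccr2. They were chosen by symbol, as ligands that attract monocytes and their receptors, and all 10 were found among the 22180 genes measured. Earlier results of these data were known when they were chosen, so counts among the 10 are descriptions and not tests of the set. Each was read by 1 probe set, a group of probes designed to 1 gene, whose annotation carried that symbol alone. RNA came from 6 snap-frozen breast tumours, 1 whole-transcript Affymetrix array per tumour. All mice carried PyMT (polyoma virus middle T oncoprotein, which drives mammary tumours). Of the tumours, 3 came from SG-/- mice, which lack serglycin, and 3 from SG+/- mice, which keep 1 functional copy, so both groups had lost at least 1 copy and no tumour with both copies was analysed here. Not given in the sources used here are the promoter that drives PyMT, the strain, the age of the mice and the part of the serglycin gene that was removed. The labels give each tumour the word Mus with a number of its own, which is read here as a separate mouse, though they do not spell this out. If tumours shared a mouse, p-values would measure only the spread between these samples. Tumours are numbered as replicates 1 to 3 of each genotype, and values of 3 tumours are given in that order.

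CC chemokines are small secreted proteins that bind G protein-coupled receptors on leukocytes and guide their movement along a gradient. Ccr2 is the receptor by which classical monocytes leave the bone marrow and enter inflamed tissue, and its main ligand in this role is the product of Ccl2. In mouse mammary tumours the Ccl2 and Ccr2 axis is known for bringing in monocytes that become tumour macrophages, and Ccr1 with its ligand Ccl3 for acting in these macrophages. Serglycin is a proteoglycan of secretory granules in blood cells, and its sugar chains bind positively charged proteins, among them proteases and chemokines.

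Values are log2 expression values made with the robust multi-array average (RMA), so a difference of 1 stands for a doubling, and every difference is SG-/- minus SG+/-. Levels are compared between tumours for 1 gene and never between genes, because probe sets differ in response. Serglycin itself (Srgn) was lower in every SG-/- tumour, with a difference of -1.52 (standard error 0.15), as the labels require. In the fit over all 22180 genes, 0 passed limma's adjusted p of 0.05 (0% of genes), with a smallest adjusted p of 0.467, and 317 genes were higher and 152 lower at an unadjusted p under 0.05. By other measures the lower side held more, with 708 genes lower without overlap against 630 higher and a positive difference in 46.3% of all genes. The series description, by a fold threshold with no p-value rule, places most of its altered genes on the lower side in SG-/- tumours. The arrays also differed in a way the genotypes do not explain. Olfactory and vomeronasal receptor genes, 1394 in all, are thought to be silent outside their sense organs, and their mean (here called the receptor mean) was 4.57, 5.13 and 5.86 in the 3 SG-/- tumours and 4.58, 5.62 and 5.49 in the 3 SG+/- tumours.

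The mean was higher in SG-/- tumours for 9 of the 10 genes. Over all 10 the median difference was 0.67, against -0.01 over all genes, and without SG-/- replicate 1 it was 0.25. None was called (0 of 10 at a limma adjusted p of 0.05, each with an adjusted p of 1.00). At an unadjusted limma p under 0.05 there were 4 of 10, Ccl2, Ccl7, Ccl8 and Ccr2, all on the higher side, where 1.43% of all genes lay, while 0 of 10 lay on the lower side, which held 0.685% of all genes. Without SG+/- replicate 3 the higher count was 1 of 10, Ccr2, against 0.852% of all genes, and without SG+/- replicate 2 it was 2 of 10, Ccl7 and Ccr2, against 1.03%. In 3 of 10, Ccl7, Ccl8 and Ccr2, every SG-/- tumour lay above every SG+/- tumour, which held for 2.84% of all genes. In 0 of 10 did all SG-/- tumours lie below, which held for 3.19% of all genes. The tumours were whole tissue, and a greater number of cells of a type cannot be told apart from more RNA per cell.

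The higher values were concentrated in 1 tumour. SG-/- replicate 1 had the highest level of the 6 tumours in 9 of the 10 genes, the exception being Ccl4. Relative to the SG+/- mean of each gene, the median over the 10 genes was 1.42 in SG-/- replicate 1, 0.38 in replicate 2 and 0.16 in replicate 3, and it ran from -0.14 to 0.12 in the SG+/- tumours. In 8 of the 10 genes the levels of the SG-/- tumours stood in the same order, replicate 1 above replicate 2 above replicate 3. That is the reverse of the order of these arrays in the receptor mean, whose part in the levels was tested only as a covariate. With that covariate in the fit, Ccl2, Ccl7, Ccl8 and Ccr2 were 0.96, 0.98, 1.33 and 0.84 higher, and Ccl6 joined them at an unadjusted p under 0.05, where the higher side then held 2.88% of all genes. The standard deviation was larger in SG-/- than in SG+/- tumours for all 10 genes. For the highest tumour, the order and the standard deviation, the share over all genes was not counted. These counts therefore do not tell a trait of the 10 genes from one of the arrays.

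**Figure D1:**
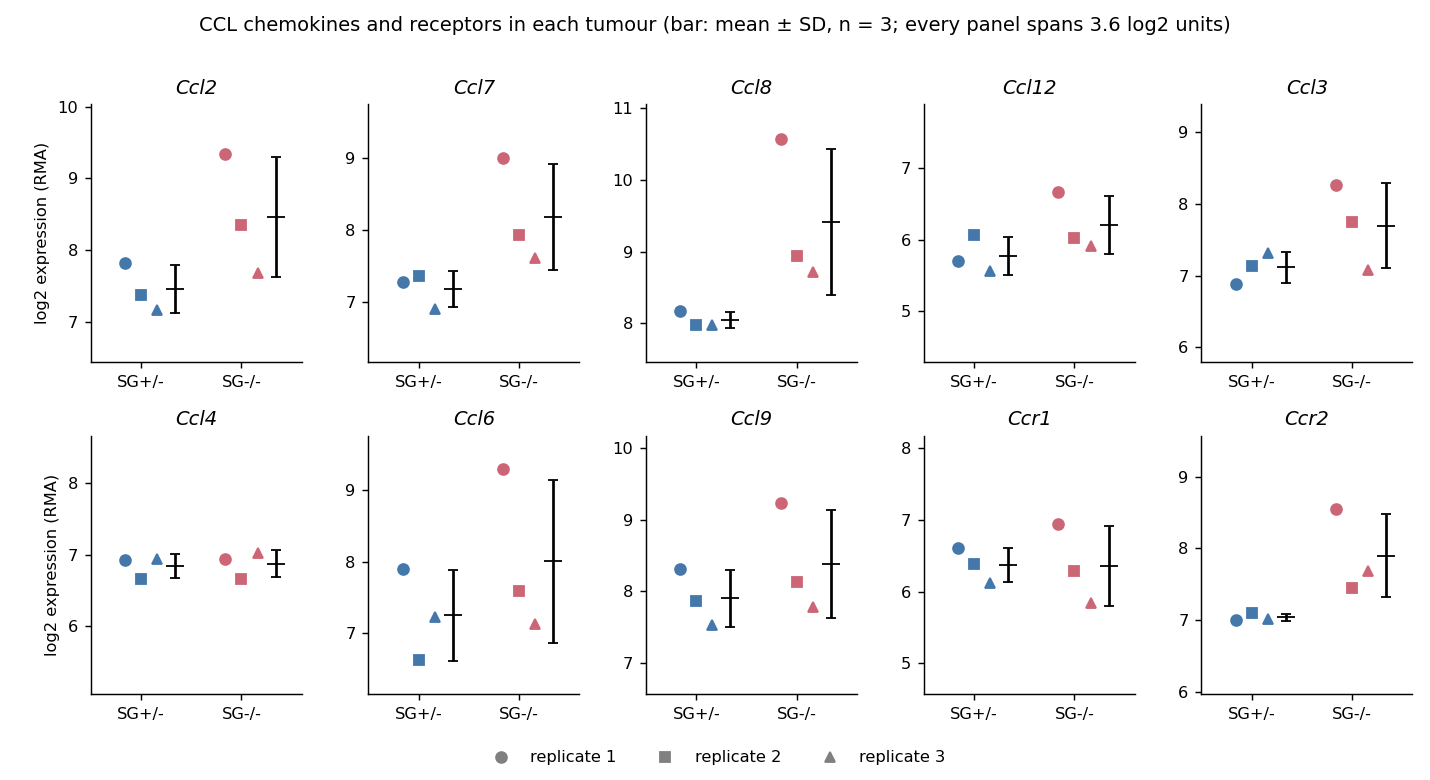
Level of each gene (log2 expression, RMA) in the 3 SG+/- tumours (blue) and the 3 SG-/- tumours (red), with marker shape for the replicate and the mean ± SD as a black bar. SG-/- replicate 1 (red circle) is the highest point in 9 of the 10 panels, and the genotypes do not overlap for Ccl7, Ccl8 and Ccr2.

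The genes Ccl2, Ccl7, Ccl8 and Ccl12 encode the monocyte chemoattractant proteins of the mouse and lie next to each other on chromosome 11, with Ccl11 among them. Of all 10 genes Ccl8 had the largest difference. Its product attracts monocytes and T cells and is best known in the mouse as a ligand of Ccr8. The Ccl8 level was 8.17, 7.97 and 7.98 in the 3 SG+/- tumours and 10.6, 8.94 and 8.72 in the 3 SG-/- tumours. All 3 SG-/- tumours were above the SG+/- tumours, the nearest by 0.55, and replicate 1 stood far above the other two. The Ccl8 difference was 1.37 (standard error 0.46), or 2.59-fold with a 95% confidence interval from 1.22 to 5.48, and by an exact permutation test (two-sided) p was 0.1, which is as low as 3 tumours a group can give. Ranked by size in either direction, this difference was number 27 of 22180 genes. Without SG-/- replicate 1 it was 0.79, and the genotypes were still apart.

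Ccl7 encodes a chemokine that binds Ccr2 and also Ccr1. Its level was 7.28, 7.35 and 6.89 in the 3 SG+/- tumours against 9.01, 7.92 and 7.60 in the 3 SG-/- tumours. The groups did not overlap, and the gap between the nearest tumours was 0.25. The Ccl7 difference was 1.00 (standard error 0.36, 95% confidence interval 0.16 to 1.85), and without SG-/- replicate 1 it was 0.59.

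Ccl2 encodes the main ligand of Ccr2. Its level was 7.81, 7.38 and 7.16 in the 3 SG+/- tumours and 9.34, 8.34 and 7.68 in the 3 SG-/- tumours. The groups overlapped by a single tumour, since SG-/- replicate 3 lay under SG+/- replicate 1. The Ccl2 difference was 1.00 (standard error 0.41, 95% confidence interval 0.04 to 1.97) and its exact two-sided permutation p was 0.2. Leaving out SG-/- replicate 1 gave 0.56 and leaving out SG-/- replicate 3 gave 1.39.

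Ccl12, a further ligand of Ccr2 found in the mouse, was the only one of the 10 genes whose mean lay under the dim level of 6.09, the 40th percentile of all probe sets, and 9 of the 10 passed that filter. Its level was 5.70, 6.07 and 5.55 in the 3 SG+/- tumours and 6.66, 6.02 and 5.91 in the 3 SG-/- tumours. SG-/- replicate 1 was the highest tumour, while the other two SG-/- tumours lay inside the SG+/- range. The Ccl12 difference was 0.42 with a 95% confidence interval from -0.14 to 0.99, and without SG-/- replicate 1 it was 0.19.

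Ccl8 and Ccl12 are neighbours on the plus strand, and their upstream sequences are shown because the 2 genes are close relatives that lie side by side. The table of RefSeq upstream sequences used here (GRCm38.p6 build) matched 7 of the 10 genes. The 250 bases before the start of each transcript were searched on both strands for TATAAA (the core of the TATA box), GAGGAA (core of PU.1 sites, a factor of myeloid cells), TGANTCA (AP-1), GGGNNNNNCC (NF-kB) and GAAANNGAAA (interferon-stimulated response element). Capitals mark matches. The windows are chr11:82114935-82115184 for Ccl8 and chr11:82101595-82101844 for Ccl12.
Ccl8: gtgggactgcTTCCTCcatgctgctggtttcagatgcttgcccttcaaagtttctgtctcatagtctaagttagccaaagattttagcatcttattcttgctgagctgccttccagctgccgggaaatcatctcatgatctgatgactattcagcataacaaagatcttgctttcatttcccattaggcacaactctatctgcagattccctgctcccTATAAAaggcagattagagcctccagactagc
Ccl12: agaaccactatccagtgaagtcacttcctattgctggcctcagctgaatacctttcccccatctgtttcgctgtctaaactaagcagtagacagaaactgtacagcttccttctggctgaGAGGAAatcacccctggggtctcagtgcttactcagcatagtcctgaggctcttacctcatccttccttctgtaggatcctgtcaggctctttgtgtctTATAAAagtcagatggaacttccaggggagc
Both held a TATAAA at almost the same place, from 32 bases before the start in Ccl8 and from 31 in Ccl12, a match present in 12.4% of the 32851 windows in the table. Both also held 1 PU.1 core, on the minus strand in Ccl8 and the plus strand in Ccl12, a match found in 23.3% of all windows and in 4 of the 7 windows of these genes. None of the 7 windows held GAAANNGAAA, against 2.98% of all windows. GGGNNNNNCC stood in 2 of the 7, against 45.8%, and TGANTCA in 1, against 6.75%. Matches overlapped in Ccl9, where 2 of its 3 TATAAA matches overlap each other on opposite strands. A match is a run of letters and was not tested as a binding site.

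Along this stretch of chromosome 11 in RefSeq order, the differences were 1.00 for Ccl2, 1.00 for Ccl7, 0.37 for Ccl11, 0.42 for Ccl12, 1.37 for Ccl8 and 0.01 for Ccl1. Ccl11 encodes eotaxin, which attracts eosinophils, and Ccl1 encodes a ligand of Ccr8, and for both the genotypes overlapped.

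Ccl3, Ccl4, Ccl6 and Ccl9 lie in a further cluster on chromosome 11 that begins with Ccl5. Ccl3 and Ccl4 encode the macrophage inflammatory proteins alpha and beta, the first a ligand of Ccr1. The Ccl3 level was 6.89, 7.14 and 7.31 in the 3 SG+/- tumours and 8.26, 7.75 and 7.08 in the 3 SG-/- tumours. SG-/- replicates 1 and 2 exceeded all SG+/- tumours and replicate 3 fell within their range. The Ccl3 difference was 0.58 (standard error 0.30, 95% confidence interval -0.12 to 1.28), and leaving out SG-/- replicate 1 gave 0.30 and SG-/- replicate 3 gave 0.89.

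For Ccl4 the levels were 6.92, 6.65 and 6.95 in the 3 SG+/- tumours and 6.94, 6.66 and 7.02 in the 3 SG-/- tumours. The genotypes covered almost the same range. The Ccl4 difference was 0.03 (standard error 0.15) with a 95% confidence interval from -0.33 to 0.40, so that its upper bound stood for a 1.32-fold increase, and its sign turned under 5 of 13 alternative settings. The Ccl3 difference was larger than that of Ccl4 by 0.55, with overlap between genotypes (exact permutation p = 0.3, and 0.3 after Benjamini-Hochberg adjustment over 3 pairs of genes). The pairs, Ccl3 with Ccl4, Ccr2 with Ccr1 and Ccl8 with Ccl12, were chosen after their values were seen, and the last is not described because Ccl12 was dim. The annotated spans of Ccl3 and Ccl4 overlap in RefSeq, and whether the probes of one take up signal of the other was not tested.

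Ccl6 and Ccl9 encode ligands of Ccr1 that are made by myeloid cells of the mouse. The Ccl6 level was 7.89, 6.62 and 7.23 in the 3 SG+/- tumours and 9.29, 7.59 and 7.14 in the 3 SG-/- tumours. SG-/- replicate 1 alone was above the SG+/- range. The Ccl6 difference was 0.76 (standard error 0.58, 95% confidence interval -0.61 to 2.12), the widest interval of the 10 genes, and it was 0.11 without SG-/- replicate 1. Leaving out SG+/- replicate 2 gave 0.45 and leaving out SG-/- replicate 3 gave 1.19.

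The Ccl9 level was 8.32, 7.86 and 7.53 in the 3 SG+/- tumours and 9.23, 8.14 and 7.79 in the 3 SG-/- tumours. As with Ccl6, only SG-/- replicate 1 exceeded the SG+/- tumours. The Ccl9 difference was 0.48 (standard error 0.39, 95% confidence interval -0.43 to 1.40), and it was 0.06 without SG-/- replicate 1. Leaving out SG+/- replicate 3 gave 0.30 and leaving out SG-/- replicate 3 gave 0.78.

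**Figure D2:**
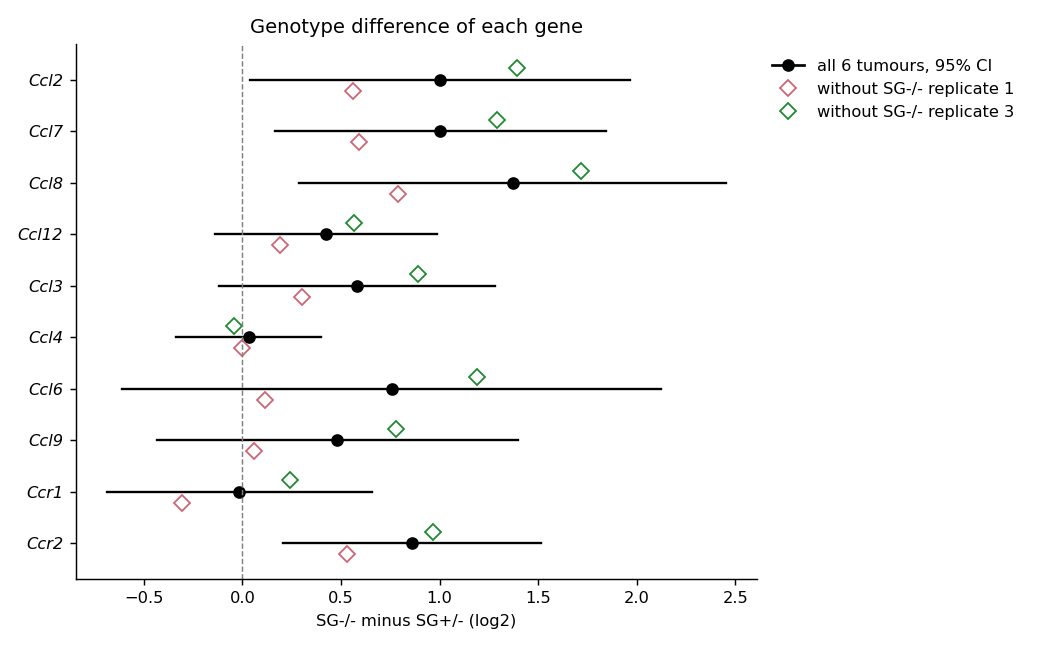
Difference SG-/- minus SG+/- (log2) of each gene with its 95% confidence interval from limma over all 6 tumours (black), and the same difference without SG-/- replicate 1 (red diamonds) or replicate 3 (green diamonds). Intervals lie above 0 for Ccl2, Ccl7, Ccl8 and Ccr2, and without SG-/- replicate 1 the differences of Ccl6 and Ccl9 are 0.11 and 0.06.

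The receptors Ccr1 and Ccr2 lie in 1 cluster on chromosome 9. Ccr2 marks classical monocytes and is also present on some T cells and dendritic cells. Its level was 7.00, 7.10 and 7.01 in the 3 SG+/- tumours and 8.55, 7.45 and 7.68 in the 3 SG-/- tumours. The SG+/- tumours lay close together, with a standard deviation of 0.05, and every SG-/- tumour was above them by at least 0.35. The Ccr2 difference was 0.86 (standard error 0.28, 95% confidence interval 0.20 to 1.51), or 1.81-fold, with an exact two-sided permutation p of 0.1. Ccr2 had the smallest unadjusted p of the 10 genes and ranked 151 of 22180. The difference was 0.53 without SG-/- replicate 1. Limma array weights were 0.96, 4.95 and 0.20 for the 3 SG-/- tumours and 0.73, 0.74 and 1.99 for the 3 SG+/- tumours. The weighted SG-/- mean thus rested mostly on replicate 2, the lowest SG-/- tumour for Ccr2. With these weights the Ccr2 difference was 0.60, and Ccr2 was then not among the genes with an unadjusted limma p under 0.05. On the higher side these made up 6.75% of all genes and 4 of the 10, namely Ccl2, Ccl3, Ccl7 and Ccl8.

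Ccr1 encodes a receptor of monocytes, macrophages and neutrophils that binds the products of Ccl3, Ccl6, Ccl7 and Ccl9. Its level was 6.60, 6.39 and 6.12 in the 3 SG+/- tumours and 6.94, 6.29 and 5.84 in the 3 SG-/- tumours. The SG-/- tumours lay on both sides of the SG+/- range. The Ccr1 difference was -0.02 (standard error 0.28) with a 95% confidence interval from -0.69 to 0.66, which includes changes of up to 1.58-fold upward. Its sign turned in 4 of 13 alternative settings, with 0.24 without SG-/- replicate 3. The Ccr2 difference was larger than the Ccr1 difference by 0.87, and for this contrast the genotypes did not overlap (exact permutation p = 0.1, adjusted over the 3 pairs 0.15). This pair was chosen after its values were seen, so the contrast is a description only. An exact p of 0.1 is also the lowest that 3 tumours a group can give.

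**Figure D3:**
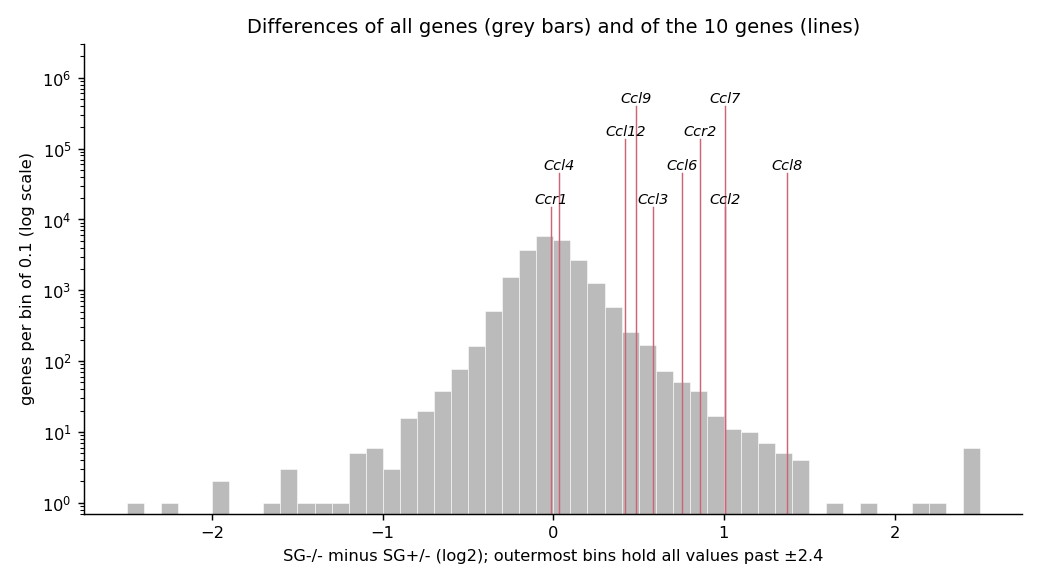
Number of genes per bin of 0.1 in the difference SG-/- minus SG+/- (log2; count on a log scale) over all 22180 genes, with the 10 genes as red lines. Ccr1 at -0.02 and Ccl4 at 0.03 lie in the middle of the distribution, and Ccl2, Ccl7 and Ccl8, at 1.00 to 1.37, in its thin upper tail, which was not tested as a group.

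Of the other CC chemokines, 10 were measured. At an unadjusted limma p under 0.05, 1 was higher and 0 were lower, against 1.43% and 0.685% of all genes. At the adjusted p 0 were called, and their median difference was 0.08. That one was Ccl5, which attracts T cells and monocytes and is a ligand of Ccr1. The Ccl5 level was 8.12, 8.52 and 8.43 in the 3 SG+/- tumours and 9.36, 9.10 and 8.87 in the 3 SG-/- tumours. The groups were apart, and the difference was 0.75 (standard error 0.18). Next by p stood Ccl11, which was 0.37 higher with overlap. Of 11 other measured CC receptors, 0 had an unadjusted limma p under 0.05 in either direction, with a median difference of 0.20, and 8 of the 11 were dim. Ccr3, the first measured gene of this list, had the only lower mean of the 11, with a difference of -0.20 (standard error 0.34) and overlap. Ccr4, a receptor of helper T cells, was 0.32 higher, and Ackr4, which takes up chemokines without signalling, was 0.29 higher. Ccr3, Ccr4 and Ackr4 were all dim. Ccr8, named for its link to Ccl8 after its values were seen, differed by 0.20 (standard error 0.19) and was dim.

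Genes that act below chemokine receptors were measured for 14 of 16 listed, with a median difference of 0.13. At the adjusted p 0 were called. At an unadjusted limma p under 0.05, 3 were higher and 0 lower, against 1.43% and 0.685% of all genes. These included Rac2, a small GTPase of blood cells, which was 0.47 higher (standard error 0.16), and Dock2, the exchange factor that activates Rac in leukocyte movement, which was 0.51 higher (standard error 0.18). For both, the genotypes did not overlap. Gnai2, the inhibitory G protein subunit that these receptors use, was 0.10 higher with overlap. Genes of pathways known to induce CCL chemokines, 13 of 14 measured, had a median difference of 0.02, with 0 at an unadjusted limma p under 0.05. They include Nfkbia, which encodes an inhibitor in 1 of these pathways. Tnf was 0.42 higher and overlapped between genotypes. Il1b was 0.51 higher without overlap, at 7.50, 7.55 and 7.24 in the 3 SG+/- tumours and 8.39, 7.72 and 7.71 in the 3 SG-/- tumours. Il1a was 0.32 higher with overlap.

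Marker genes of several cell types were also higher in SG-/- replicate 1. For the marker counts that follow, 46.3% of all genes had a higher mean in SG-/- tumours. On the higher side 1.43% of all genes had an unadjusted limma p under 0.05, and 2.84% did not overlap. Of 15 monocyte and macrophage markers, all 15 had a higher mean in SG-/- tumours, 3 had an unadjusted limma p under 0.05, 4 did not overlap and 0 were called, with a median difference of 0.31. Their mean level ran from 8.05 to 8.26 over SG+/- tumours and was 8.97, 8.49 and 8.24 in the 3 SG-/- tumours, and Marco was the only dim one. Adgre1, which encodes F4/80, was 0.53 higher. Ly6c2, which marks classical monocytes and was picked after its values were seen, stood at 6.43, 5.86 and 5.62 in the 3 SG+/- tumours and 8.05, 7.35 and 6.46 in the 3 SG-/- tumours. The Ly6c2 groups did not overlap, and the difference was 1.31 (standard error 0.41). The order of Ly6c2 over the SG-/- tumours was that of 8 of the 10 genes, but not of Ccr2, at 8.55, 7.45 and 7.68. It was not particular to monocyte genes. The endothelial marker Cdh5, named after its values were seen, had the same order, at 10.1, 9.83 and 9.60.

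Fibroblasts and endothelium can also make these chemokines. Of 10 fibroblast markers all 10 had a higher mean in SG-/- tumours, 3 with an unadjusted limma p under 0.05. The median difference of the 10 was 0.55, and in 3 the genotypes did not overlap. The mean level of the 10 was 10.3, 9.25 and 9.41 in the 3 SG-/- tumours against 8.89 to 9.27 in SG+/- tumours. Of 10 endothelial markers all 10 had a higher mean, 3 with an unadjusted limma p under 0.05. Here the median difference was 0.38, and in 5 of the 10 the genotypes did not overlap. The mean level of these 10 was 8.24, 8.03 and 7.81 in the 3 SG-/- tumours against 7.53 to 7.76. None of the fibroblast or endothelial markers was dim. For T and NK cell markers, 7 of 8 were higher in the mean and 3 had an unadjusted limma p under 0.05. In 4 of the 8 the genotypes did not overlap, and the median difference was 0.32. Dim were 3 of the 8, Cd8a, Ncr1 and Klrb1c, of which Cd8a was among those with an unadjusted limma p under 0.05. Mean levels of the 8 were 6.46, 6.16 and 6.45 in the 3 SG-/- tumours against 6.02 to 6.09. The part of any of these cell types in the chemokine values was not tested.

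The mean level of markers of other cells was highest in SG-/- replicate 1 for mast, dendritic, epithelial and salivary gland cells, and in SG-/- replicate 3 for neutrophils and B cells. Of 10 neutrophil markers 7 were dim, among them S100a8 and Ly6g, and their mean level was 5.70 to 6.08 in SG-/- and 5.82 to 5.93 in SG+/- tumours. Of 8 mast cell markers 7 were dim, among them Cpa3, the only 1 that was higher at an unadjusted limma p under 0.05. For Cpa3 the genotypes overlapped. Mean levels of the 8 were 5.67 to 6.08 in SG-/- and 5.67 to 5.73 in SG+/- tumours. B cell markers, 4 of 7 dim, had a mean level of 6.64 in SG-/- replicate 3 and 5.74 to 5.99 in the other tumours, and that tumour was the lowest SG-/- tumour for Ccl2, Ccl7 and Ccl8. Dendritic cell markers ran from 7.08 to 7.27 in SG-/- and from 6.99 to 7.12 in SG+/- tumours in their mean, with 1 of 7 dim. Epithelial markers, which define the labelled tissue, were all 11 above the dim level, with a mean level of 10.4 to 10.7 in SG-/- and 10.4 to 10.6 in SG+/- tumours. Of the 11, 7 had a higher and 4 a lower mean in SG-/- tumours, and 1 was apart on the higher side. Krt19 was the only 1 with an unadjusted limma p under 0.05, at 0.89 higher with overlap. Salivary gland markers had a mean of 9.64 and 9.55 in SG-/- replicates 1 and 3 and of 7.78 to 8.30 in the other tumours, and of the 9 measured 6 were higher and 3 lower in SG-/- tumours. At an unadjusted limma p under 0.05, 1 was higher and 1 lower, and 1 was apart on the higher side and 2 on the lower side, with 0 called. Bpifa2, a parotid secretory protein, was at 6.18, 5.98 and 6.47 in the 3 SG+/- tumours and 13.5, 7.26 and 13.6 in the 3 SG-/- tumours. Dcpp2, named after its values were seen, was at 7.43, 10.7 and 8.22 in the 3 SG+/- tumours and 6.55, 4.71 and 7.43 in the 3 SG-/- tumours. The markers did not share 1 pattern. Prol1, also named after its values were seen, was highest in SG-/- replicate 2. Its level was 6.52, 5.46 and 7.74 in the 3 SG+/- tumours and 10.4, 10.9 and 6.40 in the 3 SG-/- tumours. The part of salivary tissue in the chemokine values was not tested.

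**Figure D4:**
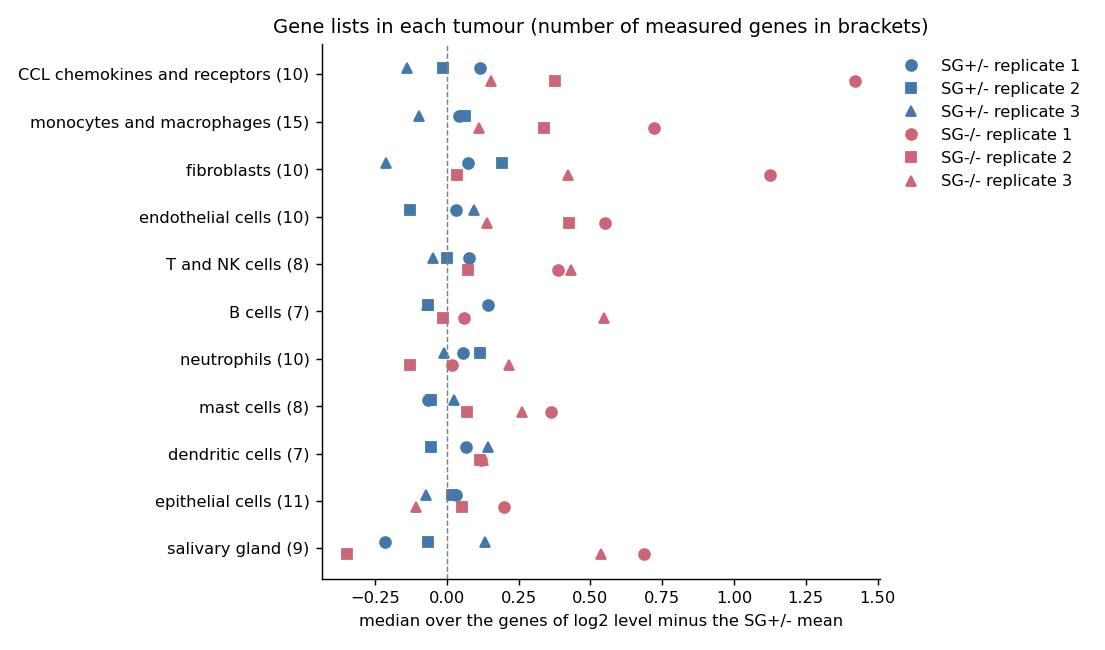
Median over the genes of each list of the log2 level minus the SG+/- mean, for each SG+/- (blue) and SG-/- (red) tumour, with the number of measured genes in brackets. The 10 chemokine and receptor genes reach 1.42 in SG-/- replicate 1, where monocyte and macrophage markers stand at 0.72 and fibroblast markers at 1.12.

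The genes most like Ccl2 in pattern were sought by Pearson correlation over the 6 arrays among 13249 named genes above the dim level. The 5 closest were Ier5l, an immediate early response gene, Lyz1, a lysozyme, Mfng, a glycosyltransferase that modifies Notch, Dpep1, a dipeptidase, and Dad1, a subunit of the oligosaccharyltransferase, with r from 0.993 to 0.998 and Spearman's rho from 0.943 to 1.00. With the 2 arrays farthest from the median of Ccl2 left out, r ran from 0.937 to 0.998. Of these, Lyz1 and Dpep1 spanned 1.31 and 1.34 between their lowest and highest tumour and were 0.56 and 0.66 higher in SG-/- tumours, while Dad1 spanned 0.23. For Ccr2 the closest were Hcar2, a receptor for nicotinic acid and hydroxybutyrate, Serping1, the C1 inhibitor, Fgd2, an exchange factor for Cdc42, Ms4a6b, a membrane protein of leukocytes, and Itga4, the alpha chain of an integrin by which leukocytes leave vessels, with r from 0.982 to 0.984 and Spearman's rho from 0.771 to 1.00. With the 2 arrays farthest from the median of Ccr2 left out, r ran from 0.783 to 0.987. In all 5 of the genes closest to Ccr2 the genotypes did not overlap, which follows from likeness to a gene with that pattern. These values of r are the highest among 13249 genes over 6 arrays and were given no test, and the arrays share the differences in receptor mean.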

How the data were processed

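Per probe set, the file holds deposited log2 values that the authors made with RMA (background correction, quantile normalization, summary), per the series description; Affymetrix Expression Console and limma are named in the submitters' processing notes, without versions. There were 33793 probe sets and 0 missing values. Array medians ran from 6.50 to 6.73, and the number of arrays limits the precision. Probe sets were named from the platform annotation (23521 with 1 symbol), symbols were updated through Entrez IDs, and the brightest probe set was kept for the 1082 genes with several.

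Genotypes were compared by lmFit and eBayes in limma 3.58.1 (R 4.3.3), two-sided, with Benjamini-Hochberg adjustment over 22180 genes. Single values had exact permutation tests over tumours. Plots used matplotlib 3.10.9. The members, lists and tests were chosen with earlier results of these data known. All members are named; of each pathway list the first-written gene and the 2 with the smallest p; of marker lists the first where an example is given; and the 5 genes most like Ccl2 and Ccr2. Replicates are numbered in accession order and pair nothing. Alternatives left out dim genes, normalized or centred again, changed eBayes settings, weights or probe set summary, added the receptor covariate, or left out each tumour.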

Additional observations from a re-analysis of the deposited data

How the results depend on the processing

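Over 13 alternatives (12 for Ccl12), the differences of Ccl2, Ccl3, Ccl6, Ccl7, Ccl8, Ccl9, Ccl12 and Ccr2 stayed above 0, and 0 of the 10 genes was called at an adjusted p of 0.05 under any of them. The Ccl4 difference was -0.011 with quantile normalization again, -0.16 with array weights and ran from -0.062 to 0.14 with single tumours left out. The Ccr1 difference was 0.095 with array weights and ran from -0.31 to 0.24 with single tumours left out. Of the 10 genes, 4 had an unadjusted limma p under 0.05, and with single tumours left out this count ran from 1 (without SG+/- replicate 3, with 0.852% of all genes on the higher side) to 5 (without SG-/- replicate 3, with 3.91%). The number of genes without overlap ran from 3 to 5, with 5 without SG-/- replicate 3, where 12.5% of all genes were apart on the higher side. Over all genes the count called ran from 0 to 1 with single tumours left out, and was 1 with the receptor mean as covariate, namely Srgn at -1.53 (limma adjusted p = 0.0446). The cause of these shifts was not tested. Leaving out dim genes removes Ccl12 and Srgn. No scaling moved the median of all genes by 0.1. The mean of all probe sets changes no member, since each has 1.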
